A study of Mus musculus with 6 samples.

Results

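The CpGs of the imprinted Peg12–Ube3a cluster on mouse chromosome 7, the counterpart of the human Prader-Willi and Angelman syndrome region, were followed through chemically induced pluripotent stem cells (C-iPSCs), pluripotent stem cells induced with 4 factors (4F-iPSCs) and embryonic stem cells (mESCs). The interval was chr7:59223750-62469510 of mm10, which holds 17943 CpGs in the reference sequence, and 877 of these had a read in any library. A CpG was taken when the reads of both libraries summed to at least 10 in each of the 3 cell types. This left 315 CpGs, out of 1106981 compared over the genome. Within the interval the rule used coverage only and no methylation value, although the interval itself was chosen with earlier results of these data known. The 30 members with 10 to 12 reads in the least read cell type had mean levels of 61.5% in 4F-iPSCs, 50.0% in mESCs and 49.8% in C-iPSCs. The 48 CpGs just outside, with 7 to 9 reads, had means of 73.3%, 59.2% and 54.9%, in the same order.

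DNA methylation was measured by reduced representation bisulfite sequencing (RRBS), in which DNA is cut at CCGG by MspI and short fragments are converted and sequenced. The methylation level is the share of reads in which the cytosine was protected from conversion. Each cell type had 2 libraries, all from male cells, and nothing in the labels says whether the replicates were separate cultures, so the spread between them may be technical. The mESCs were of the E14 line at passage 20 to 30. Both kinds of iPSC, at passage 5 to 10, came from fibroblasts of OG2 reporter mouse embryos, with 129S4/SvJaeJ, CBA/CaJ and C57BL/6J as the strains behind them. The C-iPSCs were made with small molecules, in a cocktail that included the DNA methyltransferase inhibitor 5-Aza-2′-deoxycytidine, and the earlier media also held the growth factor bFGF. The 4F-iPSCs were made with retroviruses carrying Oct4, Sox2, Klf4 and c-Myc. All cells were kept in leukemia inhibitory factor with the 2 inhibitors CHIR99021 and PD0325901, and feeder cells were removed before collection. The mESCs and the iPSCs thus differ in origin, in passage number and in the mouse strains behind them, and the effects of these cannot be told apart.

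In normal mouse cells this cluster is under the control of an imprinting centre at the Snrpn promoter. That element carries DNA methylation on the maternal copy from the oocyte onward, and on the paternal copy it is free of methylation and active. Snrpn, Ndn, Magel2, Mkrn3 and Peg12 are expressed from the paternal copy, as is the long transcript Snhg14, which runs into Ube3a from the opposite side. Ube3a, a ubiquitin ligase, is expressed from the maternal copy in neurons. A CpG that is methylated on 1 copy in every cell reads as an intermediate level in RRBS.

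Snrpn encodes a protein of the small nuclear ribonucleoprotein particles that splice RNA, and the reading frame of the short protein Snurf lies upstream of it on the same transcript. The gene is on the reverse strand. GENCODE places a start at 60005111, RefSeq places one at 60005199, and longer transcripts begin as far upstream as 60140219. Of the members, 9 lay within 1 kb of the GENCODE start, 3 of them in an intron and 6 around the start itself. The sequences around 8 of them are shown because they carry the opposite shifts described below, and that of 60005092 is left out. All are written on the forward strand of GRCm38.p6. Capitals mark the member CpGs, and also the hexamer TGCCGC (or its reverse complement GCGGCA), the core of the sequence bound by the imprint-protecting zinc finger protein ZFP57 when methylated.
Snrpn intron, chr7:60004570-60004661: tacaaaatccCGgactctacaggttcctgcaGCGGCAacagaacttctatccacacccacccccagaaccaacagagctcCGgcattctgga
Snrpn start, chr7:60005107-60005136: tctgCGctagtctTGCCGCaatggctcagg
RefSeq start, chr7:60005178-60005207: tgcacatgCGcacattttTGCCGCaatgca
Upstream of both starts, chr7:60005200-60005259: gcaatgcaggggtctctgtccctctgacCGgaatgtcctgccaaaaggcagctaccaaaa

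The hexamer was found 10 times, on either strand, within 1 kb of the Snrpn start at 60005111, from 60004179 to 60005196 by first base. As many or more lay within 1 kb of a start in 3 of the 4709 annotated genes of chromosome 7 (0.0637%), which were Snrpn, Snurf and Gm38393 and share this one locus. Within 1 kb of the other starts it was found 2 times at Ube3a, 3 times at Mkrn3, and 0 times at Ndn, Magel2 and Peg12. All 9 Snrpn promoter members had a hexamer in the 100-base window around them. Among all members this held for 17 of 315 (5.40%), and among all compared CpGs for 8.27%. In the RefSeq promoter windows of 300 bases, 11.6% of 32851 hold the hexamer, the Snrpn window 1 time. These matches describe the sequence and are not evidence of binding here.

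The Snrpn promoter was at an intermediate level in mESCs, nearly unmethylated in C-iPSCs and above mESCs in 4F-iPSCs. Its mean level was 55.6% and 57.9% in 4F-iPSCs, 34.3% and 32.2% in mESCs, and 6.54% and 4.93% in C-iPSCs. None of the 3 groups overlapped. As means ± SD over 2 libraries these are 56.7% ± 1.63 in 4F-iPSCs, 33.2% ± 1.46 in mESCs and 5.74% ± 1.14 in C-iPSCs. The 4F-iPSCs were 23.5 percentage points above mESCs and the C-iPSCs 27.5 points below (-27.5), and the iPSC types lay 51.0 points apart. The exact two-sided permutation test over libraries gave p = 0.33 (1 in 3) for each, the smallest value that 2 libraries against 2 allow. Counting methylated reads over the 9 CpGs gave 297 of 935 in mESCs (31.8%, Wilson 95% interval 28.9 to 34.8%), 62 of 901 in C-iPSCs (6.88%, 5.40 to 8.72%) and 645 of 1243 in 4F-iPSCs (51.9%, 49.1 to 54.7%). These intervals cover counting error only, and neighbouring CpGs are covered by the same reads.

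**Figure D1:**
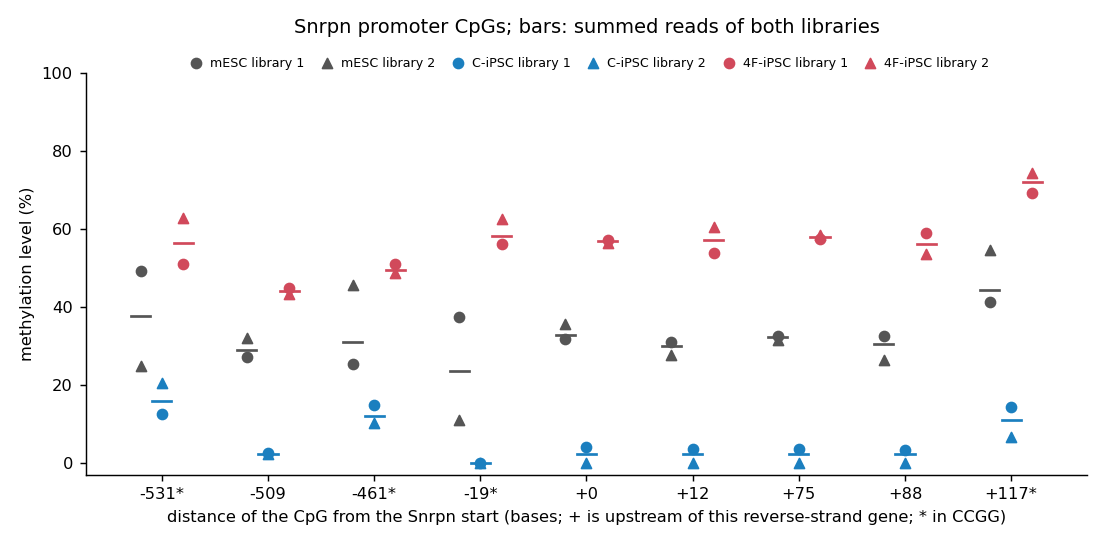
Methylation level of the 9 Snrpn promoter CpGs, in percent, at their distance in bases from the Snrpn start; circles and triangles are the 2 libraries of each cell type and bars the level of their summed reads. At all 9 CpGs the summed level is highest in 4F-iPSCs (44.1 to 72.1%) and lowest in C-iPSCs (0 to 15.8%), and stars mark the 4 CpGs inside CCGG.

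In the intron the deepest member was 60004602, which sits inside the hexamer. It had 84 of 187 and 102 of 235 methylated reads in 4F-iPSCs, 56 of 205 and 36 of 112 in mESCs, and 4 of 160 and 4 of 176 in C-iPSCs. Its level was thus 44.1% in 4F-iPSCs, 29.0% in mESCs and 2.38% in C-iPSCs, with no overlap between cell types. Its adjusted p in the quasi-binomial model over the genome was 0.0122 between 4F-iPSCs and mESCs and 1.37e-07 between C-iPSCs and mESCs. Between the iPSC types it was 1.98e-09 by the same model. These p-values rest mostly on a spread between libraries estimated over the genome, and for C-iPSCs against mESCs wholly on it. The members on either side, 60004580 and 60004650, lie in CCGG. The first stood at 56.5% in 4F-iPSCs, 37.8% in mESCs and 15.8% in C-iPSCs. The second had 118 of 238 methylated reads in 4F-iPSCs, 64 of 206 in mESCs and 25 of 209 in C-iPSCs.

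At the start, the members 60005111, 60005123, 60005186 and 60005199 gave nearly the same value. Their levels ran from 30.0 to 32.7% in mESCs, from 2.22 to 2.44% in C-iPSCs and from 56.2 to 58.0% in 4F-iPSCs. In C-iPSCs each of them had 1 methylated read in replicate 1 and 0 in replicate 2, of 41 to 45 reads in all. Their near-equal counts point to shared reads, so they are treated as few molecules rather than 4 separate measurements. Counts per CpG do not show which reads were shared. The member 60005092, in the Snrpn exon, was the shallowest, with 4 of 17 reads methylated in mESCs, 0 of 11 in C-iPSCs (which allows a share of up to 27.3%) and 14 of 24 in 4F-iPSCs. The member 60005228, upstream of both starts and in CCGG, had the highest levels of the 9 in mESCs and 4F-iPSCs, at 44.4% and 72.1%, against 11.1% in C-iPSCs.

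The cell types were in the same order in the intron and at the start, and inside and outside the cut site. The 3 intron members had means of 50.3% in 4F-iPSCs, 34.1% in mESCs and 10.5% in C-iPSCs, and the 6 members at the start 59.9%, 32.8% and 3.07%. Outside CCGG the 5 members were at 31.0% and 30.7% in the mESC libraries, 3.42% and 0.455% in C-iPSCs and 54.5% in each 4F-iPSC library. In CCGG the 4 members were at 56.9% and 62.1% in 4F-iPSCs, 38.3% and 34.1% in mESCs, and 10.4% and 12.4% in C-iPSCs. Of the 281 members of the whole cluster with at least 5 reads in every library, 10 had both 4F-iPSC libraries above and both C-iPSC libraries below both mESC libraries (3.56%), where 0.546% of the 1051651 CpGs so covered over the genome did. These were all 8 fully covered Snrpn promoter members, with 59919081 in Snhg14 and 62377903 in Magel2.

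A CpG was called strongly different when Fisher's exact test on summed reads gave an unadjusted p below 0.05 and the levels differed by more than 33.3 percentage points. By that rule all 9 Snrpn promoter members were higher in the 4F type of iPSC than in the chemical type, where 1.35% of all compared CpGs were called. Against mESCs, 0 of the 9 were called for 4F-iPSCs in either direction, and 1 was called lower in C-iPSCs, 60005228, whose difference lay at the limit (-33.3 points). The genome backgrounds for these calls were 14.3% (4F-iPSCs higher), 0.0333% (4F-iPSCs lower) and 0.0374% (C-iPSCs lower). With adjusted p below 0.05 and no limit on size, the quasi-binomial model called 2 of the 9 higher in 4F-iPSCs than in mESCs (background 26.7%), 2 lower in C-iPSCs than in mESCs (0.0458%), and 8 with C-iPSCs below 4F-iPSCs (2.39%).

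The promoters of 11 other genes with a maternally methylated germline region were listed for comparison, and all 11 had compared CpGs. At Peg3 the mean level was 60.1% in 4F-iPSCs, 39.9% in mESCs and 8.01% in C-iPSCs. In the same order it was 52.4%, 40.7% and 8.12% at Plagl1, 59.1%, 33.0% and 4.28% at Airn, and 62.7%, 26.2% and 6.75% at Nap1l5. Nnat, Zrsr1, Peg10, Mest and Mcts2 also had their lowest mean in C-iPSCs, from 3.81 to 13.9%, and their highest in 4F-iPSCs, from 25.2 to 60.2%. Kcnq1ot1 had means of 34.0%, 31.1% and 3.60%, and its mESC and 4F-iPSC libraries overlapped. Peg13 had 68.2% in 4F-iPSCs, 79.1% in mESCs and 52.6% in C-iPSCs. In each of the 3 cell types the Snrpn mean lay between the lowest and the highest mean of these promoters.

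Over the whole cluster the levels were highest in 4F-iPSCs and lowest in mESCs. The mean over members was 39.2% and 40.2% in 4F-iPSCs, 23.7% and 27.1% in mESCs, and 28.2% and 32.5% in C-iPSCs. No library of 1 cell type fell within the range of another. The 4F-iPSCs were 14.3 points above mESCs and 9.39 points above C-iPSCs, and C-iPSCs were 4.91 points above mESCs (p = 0.33 for each by exact permutation, the floor of the design). The genome moved the same way, and the means of all other compared CpGs were 33.7% in 4F-iPSCs, 21.8% in mESCs and 28.4% in C-iPSCs. The cluster's excess over these other CpGs within each library was 6.21 and 5.80 points in 4F-iPSCs, 2.92 and 4.44 in mESCs, and 1.93 and 1.98 in C-iPSCs. That excess was 2.33 points larger in 4F-iPSCs than in mESCs and 1.72 points smaller in C-iPSCs than in mESCs (-1.72), both at p = 0.33 by exact permutation. These values depend on the makeup of the cluster and on the weighting. Soft-masked repeat sequence holds 42.5% of the members and 14.9% of all compared CpGs, and within it the excess in 4F-iPSCs minus that in mESCs was -0.337 points (p = 1.00, exact permutation), while outside it was -1.89 points (p = 0.33, exact permutation). In neither of these classes was the excess larger in 4F-iPSCs than in mESCs, and C-iPSCs minus mESCs gave -3.84 points (p = 0.667, exact permutation) and -3.62 points (p = 0.33, exact permutation). By gene context, 4F-iPSCs minus mESCs gave 2.16 points in promoters (p = 0.33), 1.35 in gene bodies (p = 0.667) and 1.16 in intergenic sequence (p = 1.00), by the same exact test. With levels weighted by reads, the 2.33 points became 6.79, and the cluster difference between the iPSC types became 16.0 points. At 5 summed reads the 2.33 points became 4.21. The value of -1.72 was -0.959 without mESC replicate 2, and the 4.91 points were 2.78 without C-iPSC replicate 2 and 3.19 without mESC replicate 1.

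**Figure D2:**
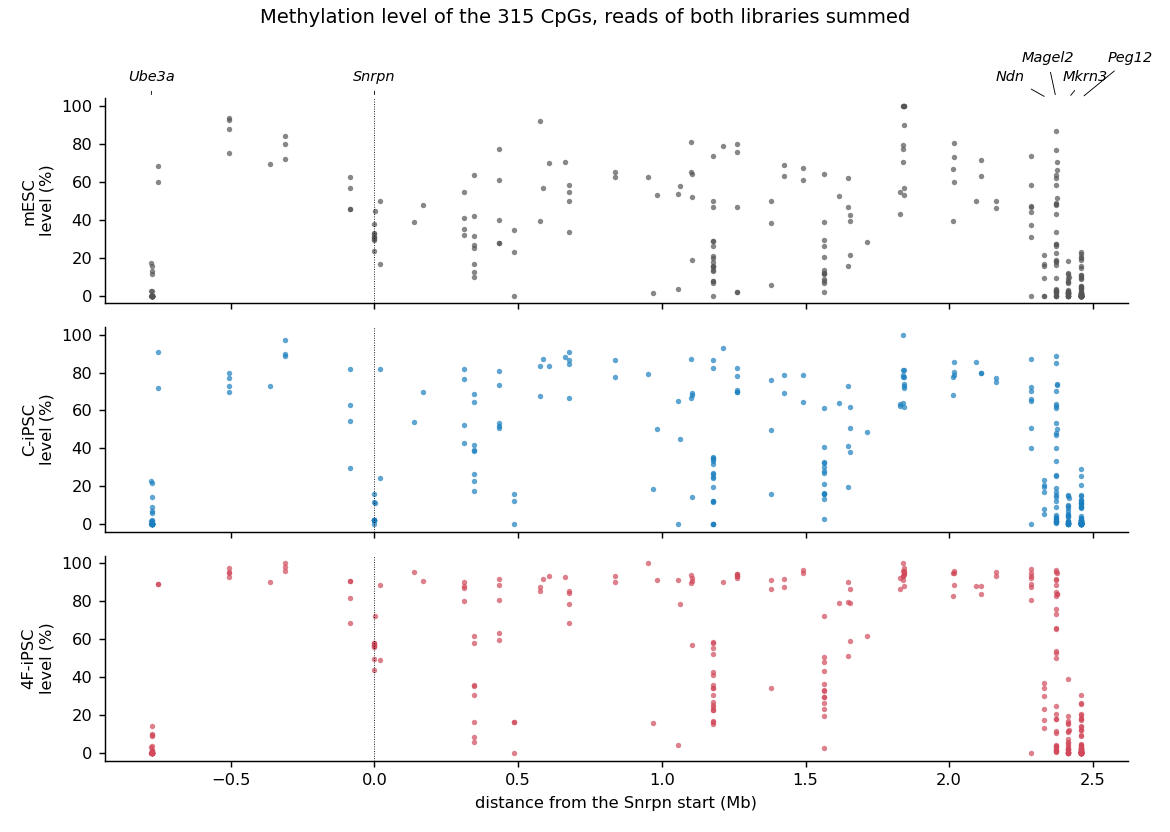
Methylation level in percent of the 315 CpGs, reads of both libraries summed, against the distance from the Snrpn start in Mb, with mESCs, C-iPSCs and 4F-iPSCs in separate panels and the starts of the named genes marked. Most CpGs of the Ube3a, Mkrn3 and Peg12 promoters lie near 0 in all panels, with single ones up to 39.1%, the CpGs between Snrpn and Ndn lie higher in 4F-iPSCs, with a mean of 65.3%, and the Snrpn CpGs are low in the C-iPSC panel alone.

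The distribution of levels differed in shape. In mESCs 198 members were low (below 30%), 101 intermediate and 16 high (80% or more). In C-iPSCs these were 191, 92 and 32, and in 4F-iPSCs 164, 58 and 93. High members made up 5.08%, 10.2% and 29.5%, against 2.67%, 12.5% and 24.7% of all compared CpGs. The median difference between 4F-iPSCs and mESCs was 8.63 points over the members and 2.33 points over all compared CpGs. Between C-iPSCs and mESCs it was 1.19 and 0.952 points, and between the iPSC types 3.71 and 1.39.

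**Figure D3:**
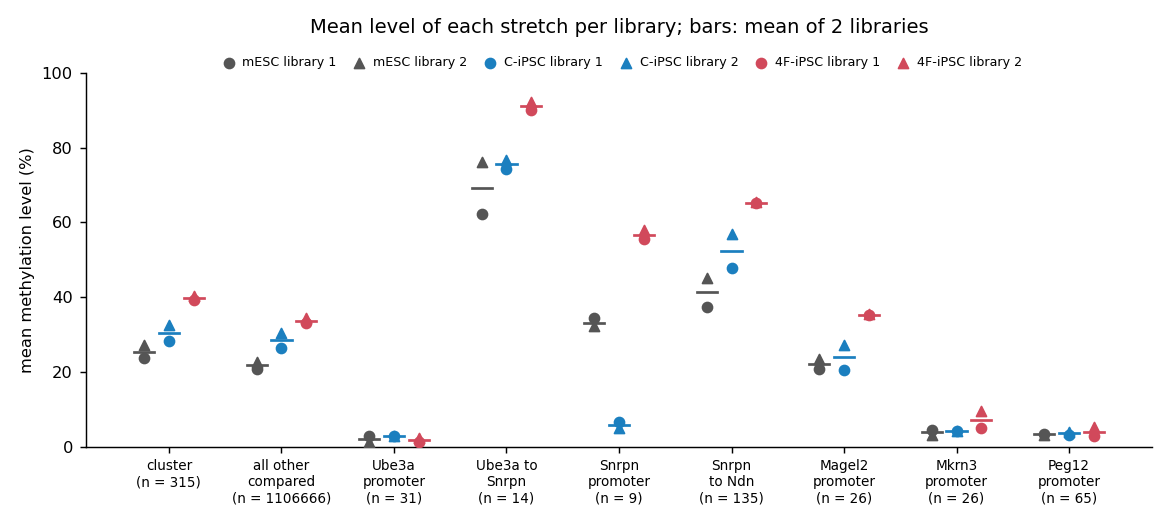
Mean methylation level in percent of each stretch of the cluster and of all other compared CpGs, with circles and triangles for the 2 libraries of each cell type, bars for their means and the number of CpGs in brackets. The Snrpn promoter is the only stretch shown in which the C-iPSC mean lies below that of mESCs (5.74 against 33.2%). The Ube3a, Mkrn3 and Peg12 promoters stay below 10% in all 6 libraries.

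Level followed CpG density. Across the 315 members, which share libraries and often reads, Spearman's rho between level and the number of CpGs in the 200-base window was -0.708 in 4F-iPSCs, -0.665 in mESCs and -0.683 in C-iPSCs. The 183 members with at least 10 CpGs in their window had mean levels of 19.7%, 13.8% and 14.9%, and the 57 with at most 3 had 85.1%, 53.3% and 65.9%, in that order. Promoters within 1 kb of a start held 160 members, gene bodies 79 and intergenic sequence 76. Soft-masked repeats held 134 members, 66 of them intergenic.

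From the Ube3a side, the promoter of the ligase gene itself was close to unmethylated. Its 31 members had means of 1.24% and 2.29% in 4F-iPSCs, 2.74% and 1.12% in mESCs, and 2.86% and 2.90% in C-iPSCs. No methylated read was seen at 25 of the 31 in mESCs, at 19 in C-iPSCs and at 21 in 4F-iPSCs. The mESC and 4F-iPSC libraries overlapped, and the C-iPSC mean was 0.947 points above that of mESCs (p = 0.33, exact permutation). The order of these small values is not stable, and reads over the 31 CpGs gave 1.53% methylated in 4F-iPSCs and 1.79% in both other cell types (Wilson 95% intervals 1.12 to 2.10%, 1.27 to 2.51% in mESCs and 1.32 to 2.43% in C-iPSCs). No strong call was made there in any comparison.

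The 14 members between the Ube3a promoter and Snrpn, 2 of them in Ube3a and 12 in Snhg14, were methylated in all cells. Their means were 90.1% and 92.3% in 4F-iPSCs, 62.3% and 76.2% in mESCs, and 74.4% and 76.8% in C-iPSCs. The mESC and C-iPSC libraries overlapped, and the 4F-iPSC libraries lay above both. In the block 59918951 to 59919115, in an intron of Snhg14, the means were 82.9%, 53.6% and 56.8%, in the same order. The 3 members within 1 kb of the small nucleolar RNA gene Gm26365 had 54.0% in mESC replicate 1 and 97.0% in replicate 2, on 7 to 11 reads each, so their difference from iPSCs was within the spread of the mESC libraries. The 17 annotated Snord116 genes, small nucleolar RNAs inside Snhg14, had 0 members, and Snord115 and Ipw are not annotated under those names.

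The 135 members between Snrpn and Ndn, a stretch with long non-coding transcripts, made up most of the 155 members outside promoters. Their means were 65.1% and 65.5% in 4F-iPSCs, 37.4% and 45.1% in mESCs, and 47.8% and 57.0% in C-iPSCs, with no overlap. Strong calls for 4F-iPSCs above mESCs numbered 48 of 315 in the cluster (background 14.3%), and 0 were called lower. Of the 48, 42 were in this stretch, 2 before Snrpn and 4 from Ndn onward. By context they were 28 of 76 intergenic members (36.8%, against 29.8% of intergenic CpGs outside the cluster), 18 of 79 in gene bodies (22.8% against 25.9%) and 2 of 160 in promoters (1.25% against 2.25%). In soft-masked sequence 33 of 134 members were called (24.6% against 27.0%). These shares went both ways from those outside the cluster, and the differences were not tested.

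Against C-iPSCs, 28 members were strongly higher in 4F-iPSCs and 0 lower (backgrounds 1.35% and 0.0285%). Of these, 13 were in promoters, 8.12% of promoter members against 0.264% of promoter CpGs elsewhere, and they are the 9 of Snrpn and 4 of Magel2. Another 10 were intergenic (13.2% against 3.52%) and 5 were in gene bodies (6.33% against 1.86%). By the quasi-binomial model with the same size limit the call count was 18 (background 0.614%). Without C-iPSC replicate 1 the Fisher rule gave 13.

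Between C-iPSCs and mESCs, 5 members were strongly higher and 3 lower in C-iPSCs (backgrounds 2.90% and 0.0374%). The higher ones were 60317150 and 60317196 in intergenic sequence, 61265397 and 61265479 in A230006K03Rik, and 62098695 in Gm9801. The lower ones were 60005228 at Snrpn, and 61844927 and 61847207 in A230057D06Rik. Both of the last had 100% in mESCs on 10 reads each, and 61847207 had 0 reads in mESC replicate 1, so its mESC value is that of 1 library. The higher calls numbered 11 without mESC replicate 2 and 10 without C-iPSC replicate 1, and in both cases 1 lower call was left.

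Runs of at least 3 strong CpGs, with neighbours no more than 300 bases apart, were counted as differentially methylated regions. There were 5 for 4F-iPSCs above mESCs, 3 for 4F-iPSCs above C-iPSCs and 0 between C-iPSCs and mESCs. No genome count of such runs is given here, and whether these numbers exceed a background was not tested. Without mESC replicate 1 the first of these counts was 3. The 3 between the iPSC types were the Snrpn intron (60004580 to 60004650), the Snrpn start (60005092 to 60005228) and Magel2 (62377789 to 62377903). The 5 against mESCs were 60317086 to 60317196, 61265397 to 61265479, 61658218 to 61658330, 62291228 to 62291349 and, in Magel2, 62377789 to 62378122.

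The densest of these runs lay 55220 bases from Ndn in intergenic sequence, and is printed because 6 of the 8 members of its block form the run while the last was unmethylated in all cells. The 8 members are in capitals.
Block before Ndn, chr7:62291219-62291361: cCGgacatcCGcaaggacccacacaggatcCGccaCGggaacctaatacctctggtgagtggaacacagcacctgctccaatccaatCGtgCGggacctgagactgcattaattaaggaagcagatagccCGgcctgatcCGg
The 6 members of the run had means of 89.1% and 90.5% in 4F-iPSCs, 39.7% and 52.3% in mESCs, and 59.5% and 62.7% in C-iPSCs. The groups did not overlap. At 62291306 the reads were 114 of 139 and 101 of 127 in 4F-iPSCs, 34 of 116 and 21 of 61 in mESCs, and 44 of 115 and 39 of 91 in C-iPSCs. The difference between the iPSC types at this CpG was 40.5 points (adjusted p = 1.03e-04, quasi-binomial model). The last CpG of the block, 62291359, had 0 methylated reads in all 6 libraries, of 42 reads in 4F-iPSCs, 49 in mESCs and 46 in C-iPSCs, which allow shares of up to 7.14%, 6.12% and 6.52%.

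The largest differences of single CpGs were at 61265479 and 61265397, in an intron of the long non-coding gene A230006K03Rik. Their block is printed because CpGs a few bases apart disagree in mESCs.
A230006K03Rik block, chr7:61265369-61265519: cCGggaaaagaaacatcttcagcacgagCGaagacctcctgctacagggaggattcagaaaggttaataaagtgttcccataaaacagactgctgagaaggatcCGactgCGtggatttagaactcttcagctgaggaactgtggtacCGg
At 61265479 the reads were 50 of 54 and 49 of 52 in 4F-iPSCs, 0 of 26 and 1 of 27 in mESCs, and 25 of 36 and 23 of 32 in C-iPSCs. This CpG was 91.5 points higher in 4F-iPSCs than in mESCs (adjusted p = 2.67e-14) and 68.7 points higher in C-iPSCs (adjusted p = 2.05e-05), by the quasi-binomial model. The member 61265397 followed it, with differences of 91.4 and 67.7 points. Between them, 61265473 had 13 of 39 and 23 of 38 methylated reads in mESCs. The outer members 61265370 and 61265517 were at 40 of 53 and 20 of 25 reads in mESCs.

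At both extreme CpGs the strand counts of mESCs differed from those of the iPSCs. The 54 and 53 mESC reads of 61265397 and 61265479 were all on the forward strand and 0 on the reverse, where C-iPSCs had 20 reverse reads at each and 4F-iPSCs 13 and 18. The neighbour 61265473 had 25 reverse reads in mESCs. In all, 7 members had at most 1 mESC read on a strand that held at least 10 in each iPSC type. Whether the E14 sequence holds these 2 CpGs was not tested. Without the 7 members, strong calls for C-iPSCs above mESCs fell to 3 and those for 4F-iPSCs above mESCs to 46.

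**Figure D4:**
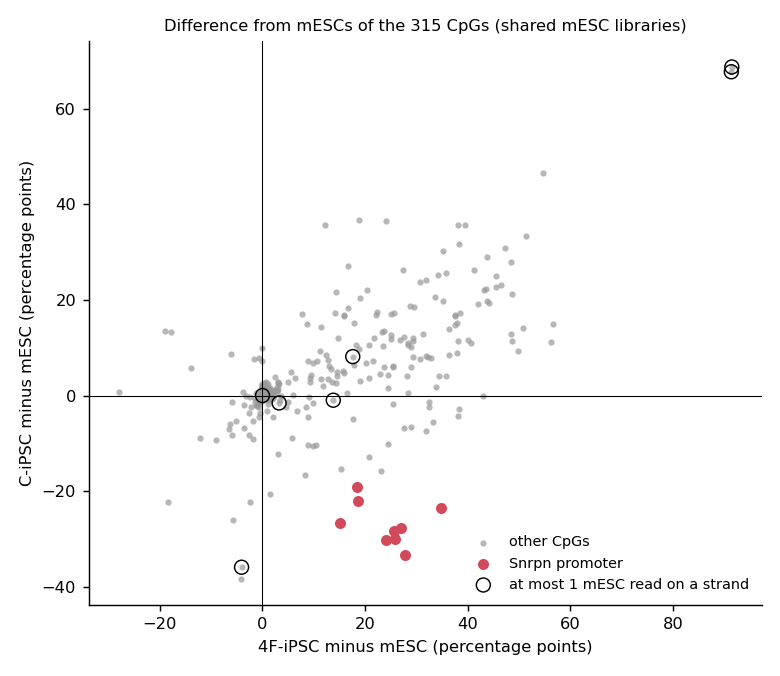
Difference from mESCs in percentage points for each of the 315 CpGs, 4F-iPSCs on the horizontal and C-iPSCs on the vertical axis; both axes use the same mESC libraries, so the points are not independent in the 2 directions. The 9 Snrpn promoter CpGs (large points) lie right of and below 0, and rings mark the 7 CpGs with at most 1 mESC read on a strand, 2 of which are at 91.4 and 91.5 points on the horizontal axis.

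Other single members were named by the size of their adjusted difference. Against mESCs, 60144175 was 56.6 points higher in 4F-iPSCs (adjusted p = 0.0158), on 18 and 22 reads. The next were 60317086 and 60317196, in 1 intergenic run, at 56.3 points (adjusted p = 1.26e-07) and 54.7 points (adjusted p = 0.00444). That run had 82.1% and 89.2% in 4F-iPSCs, 33.8% and 38.8% in mESCs, and 70.2% and 63.3% in C-iPSCs. In C-iPSCs against mESCs, 60025218 in an upstream part of Snrpn was 31.6 points higher (adjusted p = 0.00824) and 62018671 28.9 points higher (adjusted p = 0.00747). Between the iPSC types, 60317086, 61109496, 61652806 and 61385552 were 45.1, 42.4, 38.7 and 37.2 points higher in 4F-iPSCs (adjusted p from 0.00387 to 0.0151, quasi-binomial model).

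By summed reads, 49 of 315 members were lower in 4F-iPSCs than in mESCs and 87 were lower in C-iPSCs. Over all 1106981 compared CpGs these were 187028 and 254181. By adjusted p, 1 and 3 members were called lower (backgrounds 0.112% and 0.0458%). A block with a member called in both lay 351970 bases from Snrpn, in intergenic sequence. It is printed because its first CpG passed the adjusted test as lower in both iPSC types.
Block at 60492189, chr7:60492188-60492297: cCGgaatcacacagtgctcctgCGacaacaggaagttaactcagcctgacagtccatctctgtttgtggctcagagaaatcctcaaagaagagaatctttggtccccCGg
At 60492189 the reads were 8 of 78 and 13 of 51 in 4F-iPSCs, 54 of 136 and 28 of 100 in mESCs, and 8 of 81 and 9 of 55 in C-iPSCs. The level was thus 16.3% in 4F-iPSCs, 34.7% in mESCs and 12.5% in C-iPSCs, with no overlap between mESCs and either iPSC type. The difference for C-iPSCs was -22.2 points (adjusted p = 0.0380), and this was also the only member called lower in 4F-iPSCs than in mESCs by adjusted p alone (background 0.112%). The CpG between the cut sites, 60492210, had 0 methylated reads in every library, of 188 reads in 4F-iPSCs, 238 in mESCs and 189 in C-iPSCs, which allow shares of up to 1.60%, 1.26% and 1.59%.

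Ndn, which encodes the growth suppressor necdin, could not be followed by the rule. Its promoter had 0 CpGs with a read, and 8 CpGs in the gene had reads but none reached 10 in every cell type. Together these 8 held 33 methylated of 110 reads in 4F-iPSCs, 2 of 81 in mESCs and 2 of 20 in C-iPSCs.

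Magel2, an intronless gene for a protein of ubiquitin ligase complexes, showed a step from unmethylated to methylated inside the gene. The 15 members in the 600 bases after its start had means of 7.43% and 9.62% in 4F-iPSCs, 7.03% and 6.13% in mESCs, and 5.99% and 6.38% in C-iPSCs. The 11 members from there to 1000 bases had 72.8% and 70.5%, 39.6% and 47.1%, and 40.4% and 55.6%. The 4F-iPSC libraries lay above all others in the second stretch, by 28.2 points over mESCs and 23.6 points over C-iPSCs, while mESCs and C-iPSCs overlapped. Beyond 1000 bases the 6 members had means of 91.4% in 4F-iPSCs, 64.3% in mESCs and 70.4% in C-iPSCs. Over the 26 promoter members together, the means were 35.1% and 35.4%, 20.8% and 23.5%, and 20.5% and 27.2%, in the same order. With promoters of 0.5 kb, 4F-iPSCs minus mESCs fell from 13.1 to 1.40 points here, and 4F-iPSCs minus C-iPSCs from 11.3 to 1.85.

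The runs called in both 4F-iPSC comparisons start at 62377789, and that against mESCs reaches further into the gene, with 10 members in its span. The run against C-iPSCs is printed, with the 5 members in its span in capitals, and is coding.
Magel2 run, chr7:62377784-62377909: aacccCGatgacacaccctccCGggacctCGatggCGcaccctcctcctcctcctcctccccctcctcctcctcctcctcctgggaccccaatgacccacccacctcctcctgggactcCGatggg
At 62377789 the reads were 89 of 117 and 80 of 106 in 4F-iPSCs, 20 of 90 and 23 of 67 in mESCs, and 36 of 95 and 37 of 86 in C-iPSCs. The 4F-iPSC level of 75.8% was 48.4 points above mESCs (adjusted p = 1.84e-09) and 35.5 points above C-iPSCs (adjusted p = 0.00276), by the quasi-binomial model.

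**Figure D5:**
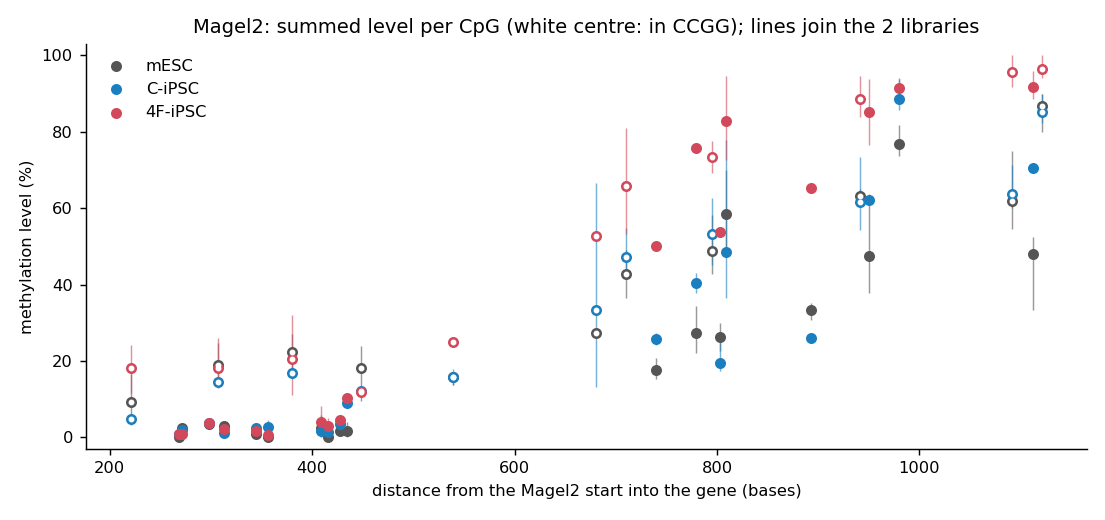
Methylation level in percent of the Magel2 members against the distance in bases from the start into the gene; points are summed reads per cell type, lines join the 2 libraries, and white centres mark CpGs in CCGG. All cell types are low within 600 bases of the start, and beyond it the 4F-iPSC points lie above the others, with means of 71.6% against 43.4% in mESCs and 48.0% in C-iPSCs up to 1000 bases.

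At the far end the promoters of Mkrn3, a zinc finger ubiquitin ligase gene, and of Peg12, an intronless gene, were low. The 26 Mkrn3 members had means of 5.00% and 9.46% in 4F-iPSCs, 4.58% and 3.12% in mESCs, and 4.23% and 4.15% in C-iPSCs. The 4F-iPSC libraries lay above the others, but their own 2 values differed by more than that margin. With promoters of 0.5 kb, 4F-iPSCs minus mESCs fell from 3.38 to 0.811 points at Mkrn3, and the libraries overlapped. The exception at Mkrn3 was 62419262, in its exon, which stood at 39.1% in 4F-iPSCs, 7.21% in mESCs and 15.5% in C-iPSCs (adjusted p = 9.76e-05 against mESCs, quasi-binomial model). The 65 Peg12 members had means of 2.87% and 5.22%, 3.36% and 3.16%, and 3.18% and 4.05%, in the same order, and all 3 pairs of libraries overlapped. No strong call was made at either promoter in any comparison.

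At these unmethylated promoters, the sequence context at the cut site went with the measured level. Over Ube3a, Mkrn3 and Peg12 together, the 26 members inside CCGG had mean levels of 13.8% in 4F-iPSCs, 12.3% in mESCs and 12.9% in C-iPSCs, and the 96 members outside had 1.40%, 0.573% and 1.00%. The gap was alike in the 3 cell types, and CCGG members made up 40.0% of the cluster and 34.1% of all compared CpGs. It bears on the Snrpn values of C-iPSCs, where the 5 members outside CCGG had a mean of 1.94% and the 4 inside 11.4%. How the ends of MspI fragments enter these levels was not tested.

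The cluster was compared with 2 other large imprinted intervals by mean level. The 545 compared CpGs from Dlk1 to Dio3 had means of 50.7% in 4F-iPSCs, 33.5% in mESCs and 40.1% in C-iPSCs, and the 753 from H19 to Cdkn1c 31.7%, 21.3% and 25.7%. The cluster's mean minus that of the H19 interval was 3.93 points larger in 4F-iPSCs than in mESCs, with no overlap of libraries (p = 0.33, exact permutation). Its mean minus that of the Dlk1 interval was 2.91 points smaller (-2.91, p = 0.33 by exact permutation).

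Read depth limits all of these values. The members held 10891 to 19187 CpG reads per library, 0.0165 to 0.0208% of the reads on compared CpGs, and the median member had 27 to 54 reads per library, fewest in mESCs. Of the pluripotency gene promoters listed, 3 of 5 had compared CpGs. Nanog was at 3.26%, 9.59% and 11.8%, Pou5f1 at 8.94%, 6.96% and 16.8%, and Zfp42 at 5.23%, 6.44% and 11.8% in mESCs, C-iPSCs and 4F-iPSCs. The 7 Pou5f1 CpGs held 1015 reads in mESCs but 15626 in C-iPSCs and 15795 in 4F-iPSCs, whose source mice carry the OG2 reporter. The source of the higher read counts and their effect on the Pou5f1 level were not tested.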

How the data were processed

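RRBS had been done on 6 libraries, 2 for each cell type. Per the methods, the authors cut DNA with MspI, kept fragments of a set size range, aligned read pairs to mm10 with BSMAP (version 2.90 in the submitters' processing notes) and called CpGs with MOABS. The deposited tables give, per CpG, whole-number counts of all and of methylated reads, and their ratio as a fraction, without pooling of replicates. The counts were used, and the fraction equalled them within 0.0005 at every CpG. Positions are 1-based.

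The level of a CpG was its methylated reads over all reads, summed over both libraries. Region means per library used CpGs with at least 5 reads in that library. All CpGs of the genome with at least 10 summed reads per cell type were tested with Fisher's exact test, and with a quasi-binomial model whose dispersion was shrunken by limma (version 3.58.1, R 4.3.3) with Benjamini-Hochberg adjustment over the genome, tested on simulated data. Regions were compared by exact permutation of libraries. Genes came from GENCODE vM21, with promoters of 1 kb to each side of a start. Sequences came from GRCm38.p6, and promoter windows from RefSeq (GRCm38.p6). Scripts ran in Python 3.11.15 with scipy 1.17.1.

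The members and lists were chosen with earlier results of these data known. Named were all cluster genes, each Snrpn promoter member and genes with a member in their promoter. Of the 28 blocks of at least 3 members only a part was named. Elsewhere the 5 members with the largest difference per comparison were named, among those with adjusted p below 0.05. Alternatives concerned the coverage minimum, the weighting, the size limit, the test, the strand, the promoter width, the run length, each library left out and the replicate number as a block. The counting intervals assume independent reads. Library totals over all CpGs were 53694199 to 96534037 CpG reads.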

Additional observations from a re-analysis of the deposited data

Results flagged for a closer look

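At 2 separate places, the Snrpn promoter as a whole and in both of its parts and a block in A230057D06Rik, both 4F-iPSC libraries lay above and both C-iPSC libraries below both mESC libraries, so that the differences of the 2 iPSC types from mESCs had opposite signs. The opposite signs themselves were not tested. The gap between the 2 differences is the difference between the iPSC types, in which the mESC libraries cancel. Exact permutation over libraries gave p = 0.33 for it at each place, the smallest possible. That value decides nothing, because the order of libraries that marks these places already separates the iPSC types. All 9 Snrpn promoter CpGs were strong calls in that comparison, and in the block 1 of 5 CpGs passed the adjusted quasi-binomial test. At the Snrpn promoter, with 9 CpGs, the differences from mESCs were 23.5 and -27.5 points and differed by 51.0 points. Within it, the intron CpGs differed by 39.9 points (16.2 and -23.7) and the CpGs at the start by 56.8 points (27.1 and -29.7). The other place was the block of 5 CpGs from 61844927 to 61845026 in the long non-coding gene A230057D06Rik, where the differences from mESCs were 10.3 and -4.19 points and differed by 14.5 points. The sign for C-iPSCs holds for the mean but not over its CpGs, of which 2 were higher and 2 lower than in mESCs, with a median difference of 0, and the mean of mESC replicate 1 rests on 4 CpGs. In that block 61844927 had 10 reads in mESCs, and 2 of its 5 CpGs had at most 1 mESC read on a strand well read in the iPSCs. At 61845011 all reads of all 6 libraries were methylated.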

How the results depend on the processing

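Of 485 alternative values for 36 results, 435 were labelled the same, 18 reversed, 11 stronger and 21 weaker. For the region means this label follows direction alone, because exact permutation of 2 libraries against 2 cannot go below p = 0.33. Their size could still change, and at Mkrn3 4F-iPSCs minus mESCs went from 3.38 to 1.15 points without 4F-iPSC replicate 2. For counts the label allowed some change, such as from 28 to 41 calls between the iPSC types at 5 reads. The direction of the cluster and Snrpn differences held in all alternatives. With read weighting the cluster differences were 20.8 points (4F-iPSCs minus mESCs), 4.80 (C-iPSCs minus mESCs) and 16.0 (between the iPSC types), and the excess of the cluster over other CpGs in 4F-iPSCs minus mESCs was 6.79 (4.21 at 5 reads, 1.57 to 3.09 without 1 library). With 1 library left out, the cluster differed by 12.6 to 16.0 points (4F-iPSCs minus mESCs), 2.78 to 7.05 (C-iPSCs minus mESCs) and 7.25 to 11.5 (4F-iPSCs minus C-iPSCs), and the Snrpn promoter by 22.3 to 24.6, -28.5 to -26.5 and 49.8 to 52.1. Small promoter differences reversed, and the cause was not tested. For Ube3a, 4F-iPSCs minus mESCs (-0.166) became 1.29 at 5 summed reads and 0.127 outside CCGG (-0.974 to 0.643 without 1 library), 4F-iPSCs minus C-iPSCs (-1.11) became 0.318 at 5 and 0.00436 at 30 reads, and C-iPSCs minus mESCs (0.947) became -0.151 at 30 reads. C-iPSCs minus mESCs became -1.07 at Magel2 with read weighting, and -0.452 there and -0.438 at Mkrn3 with promoters of 0.5 kb. Without 1 library it ran from -1.60 to 5.06 at Magel2, from -0.385 to 1.07 at Mkrn3, from -0.0830 to 0.787 at Peg12 and from -5.21 to 37.8 at Gm26365, the last set by the mESC libraries. At Peg12, 4F-iPSCs minus mESCs ran from -0.392 to 1.96 and minus C-iPSCs from -0.743 to 1.61. At Gm26365, 4F-iPSCs minus C-iPSCs became -1.05 at 20 reads.

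Strong calls (48 for 4F-iPSCs above mESCs, 5 and 3 for C-iPSCs above and below mESCs, 28 for 4F-iPSCs above C-iPSCs) numbered 96, 19, 10 and 68 with a limit of 0.2, plus 1 for 4F-iPSCs below C-iPSCs, and 7, 2, 0 and 6 with a limit of 0.5. C-iPSCs below mESCs gave 12 calls at 5 reads, 1 at 20 and at 30, and 1 with adjusted Fisher p. The quasi-binomial model gave 2 and 0 calls between C-iPSCs and mESCs and 18 between the iPSC types. Forward reads alone gave 31, 1 (C-iPSCs below mESCs) and 14 (between the iPSC types), and reverse reads alone 18 between the iPSC types. Without the 7 CpGs with at most 1 mESC read on a strand, an alternative chosen after seeing the data like those on CCGG, on 5 reads in every library and on crossed numbers, 3 calls were left for C-iPSCs above mESCs. With 1 library left out, 4F-iPSCs were above mESCs at 36 to 46 CpGs, and C-iPSCs were above mESCs at 5 to 11 (11 when mESC replicate 2 was left out, 10 for C-iPSC replicate 1) and below at 1 to 3. Between the iPSC types there were 13 to 37 (13 without C-iPSC replicate 1), and 0 to 1 the other way. Runs against mESCs numbered 3 to 6 for 4F-iPSCs (3 without mESC replicate 1) and 0 to 1 for C-iPSCs. With at least 5 CpGs per run, 1 was left against mESCs and 1 between the iPSC types.

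The replicate numbers were not shown to pair the libraries. Over 1051651 CpGs the deviations of same-numbered libraries correlated at -0.189 (4F-iPSCs and mESCs), 0.0381 and 0.0956. With the replicate number as a block, calls were 49 for 4F-iPSCs above mESCs, 6 and 2 between C-iPSCs and mESCs, and 28 between the iPSC types, and the mean differences were the same (14.3, 4.91 and 9.39 points for the cluster). With crossed numbers there were 49 for 4F-iPSCs above mESCs. The median member had 27 reads in the shallowest library, which was of mESCs, and how depth changes the calls by cell type was not tested.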
